A study of Neurospora crassa OR74A with 3 samples.

Results

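In mycelia of Neurospora crassa, a filamentous fungus that feeds on plant cell walls, 161 genes had messenger RNA levels that were lower in each of 2 successive deletion strains. The strains were Δ3βGΔcdt2Δncu05853, Δ3βGΔncu05853 and their parent Δ3βG, with 1 RNA sequencing library each. All of them lack gh1-1, gh3-4 and gh3-3, 3 genes for β-glucosidases, which split cellobiose into glucose. Δ3βGΔncu05853 also lacks NCU05853, which encodes the cellodextrin transporter-like protein CLP1 named in the series title. Δ3βGΔcdt2Δncu05853 lacks in addition cdt-2, the gene of a cellodextrin transporter. Each culture was grown for 16 h on sucrose, washed and kept for 4 h in 2% cellobiose. No strain that lacks cdt-2 but holds NCU05853 was among the samples, and the labels name no replicate culture, so no test across replicates was possible. Intervals given with ratios are exact 95% counting intervals and cover counting error only.

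The members were chosen by these same levels. Reads were scaled by median-of-ratios size factors. A member had at least 100 reads in Δ3βG, at most 1/1.4 of its Δ3βG level in Δ3βGΔncu05853, and at most 1/1.4 but at least 1/8 of its Δ3βGΔncu05853 level in Δ3βGΔcdt2Δncu05853. The ratio of Δ3βGΔcdt2Δncu05853 over Δ3βGΔncu05853 is called the cdt2 step below, and that of Δ3βGΔncu05853 over Δ3βG the ncu05853 step. The rule picked 161 of 9730 genes, or 2.59% of the 6228 genes with at least 100 reads in Δ3βG other than deleted genes. At the cdt2 step alone 30.3% of the 6228 genes were at most 1/1.4 (1885, against 1576 at least 1.4-fold higher; 3120 against 964 when scaled on library totals, 4036 against 646 on those totals without eas and 2844 against 1093 on all reads in the file), and at the ncu05853 step alone 5.56%. Both steps together were at most 1/1.4 in 199 genes (3.20%), of which 38 lay under the limit of 1/8 and are not members. Since both steps use the Δ3βGΔncu05853 library and chose the members, the ratios are a description with no test.

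Fungi adjust their transcription to the carbon source. While a good sugar is at hand, genes for the use of amino acids and fats and for gluconeogenesis are kept low, and spore formation in N. crassa is favoured when carbon or nitrogen runs short. The fungal cell wall, a mesh of glucans, chitin and glycoproteins, is remodelled throughout growth and again when aerial hyphae and conidia, the asexual spores, are made. The 28 members that carry a gene symbol are described by role: 7 transcription factors and conidiation genes, 7 cell wall genes, 2 other glycoside hydrolases, 5 genes of metabolism, transport and mitochondria, 4 signalling genes and 3 with no role given. This grouping was made by hand, with no test of enrichment.

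The libraries held 9808610 gene reads in Δ3βGΔcdt2Δncu05853, 9465639 in Δ3βGΔncu05853 and 8586155 in Δ3βG. NCU05853 had 0, 2 and 4190 reads in that order of strains, and cdt-2 had 9, 2842 and 1907. Of the β-glucosidase genes that all strains lack, gh1-1 had 0, 47 and 18 reads, gh3-4 13, 14 and 5, and gh3-3 21, 14 and 15. Reads outside genes made up 5.16%, 8.41% and 9.64% of all reads, and the hydrophobin gene eas, a coat protein gene of conidia, 0.305%, 20.0% and 18.7% of gene reads.

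Together the 161 members took 0.430% of gene reads in Δ3βGΔcdt2Δncu05853, 1.66% in Δ3βGΔncu05853 and 2.63% in Δ3βG. Their median level in Δ3βGΔcdt2Δncu05853 was 0.276 of that in Δ3βG, with a range of 0.0578 to 0.491. Over all 6228 genes this median was 0.924. The members' median ratio was 0.428 at the cdt2 step and 0.650 at the ncu05853 step, against 0.936 and 0.986 over all genes. The cdt2 step was the larger one in 138 members and the ncu05853 step in 23. Over all 6228 genes, too, more were at most 1/1.4 at the cdt2 step (30.3%) than at the ncu05853 step (5.56%). The split also depends on scaling, since library totals shift every log2 ratio at the cdt2 step by -0.39. The members' values are levels in whole mycelium, in which fewer cells of a type and less RNA per cell cannot be told apart.

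**Figure D1:**
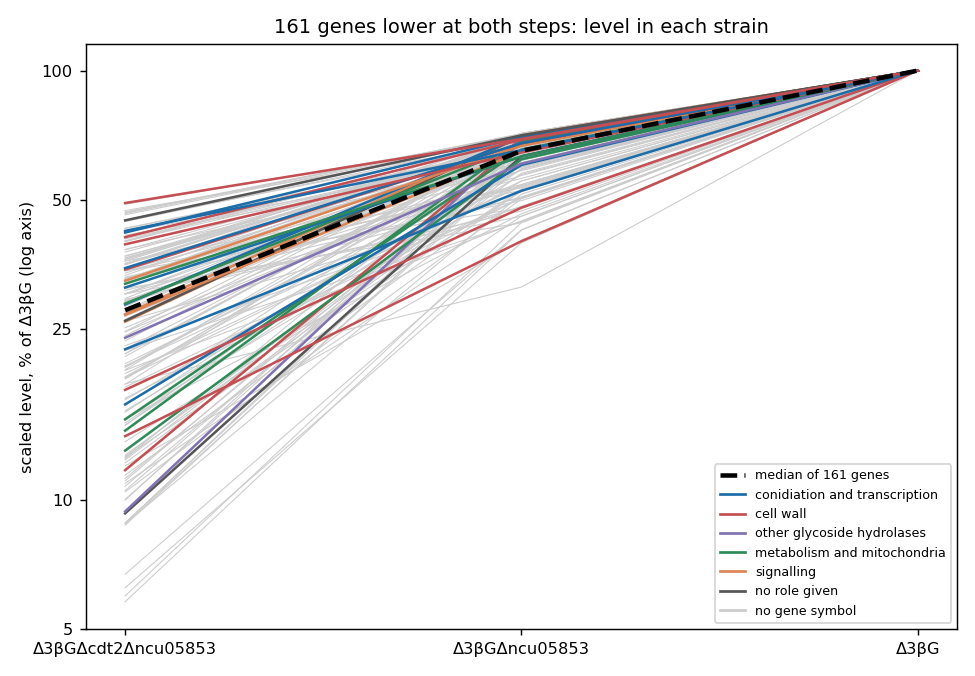
Scaled level of each of the 161 members in Δ3βGΔcdt2Δncu05853, Δ3βGΔncu05853 and Δ3βG, as a percent of its Δ3βG level on a log axis, with 1 line per gene and 1 library per strain. Coloured lines are the 28 members with a gene symbol, grey lines the other 133, and the dashed line is the median. Every line climbs from left to right, as the rule requires, and the spread at the left is far wider than in the middle.

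The members were unequal in depth of change. In Δ3βGΔcdt2Δncu05853, 12 of them stood at or under 0.1 of the Δ3βG level, 41 between 0.1 and 0.2, 40 between 0.2 and 0.3, 45 between 0.3 and 0.4, and 23 above 0.4. The median ratio of the cdt2 step was 0.141 in the lowest of these bands and 0.651 in the highest, while that of the ncu05853 step was 0.612 and 0.690; the bands are cut on the product of both ratios. At the cdt2 step 98 members were at most 1/2, where 12.8% of all 6228 genes were, and at the ncu05853 step 19 members, where 0.690% of all genes were. Both steps were at most 1/2 in 11 members. In Δ3βGΔcdt2Δncu05853 71 members stood at most at 1/4 of the Δ3βG level, where 4.87% of all genes did.

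**Figure D2:**
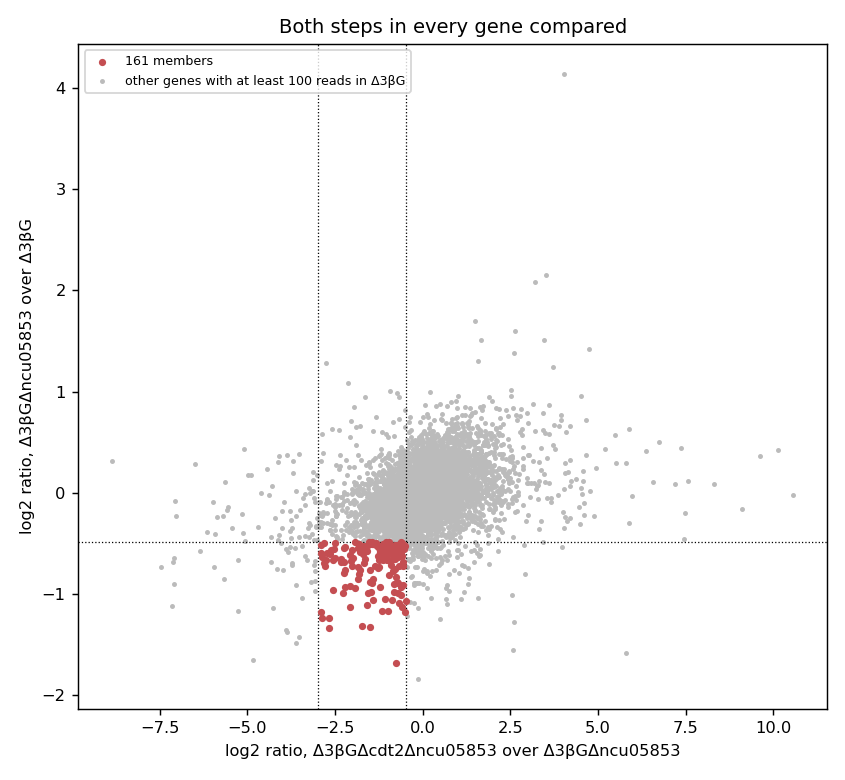
Log2 ratio of Δ3βGΔcdt2Δncu05853 over Δ3βGΔncu05853 (horizontal) against that of Δ3βGΔncu05853 over Δ3βG (vertical) for 6226 genes with at least 100 reads in Δ3βG and reads in all libraries. Dotted lines are the limits of the rule, and the 161 members fill the box they enclose; the axes share the Δ3βGΔncu05853 library.

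All 161 members had counting intervals below 1 at each step. The fold and the minimum of reads in the rule nearly force this, so nothing is read from it. At the cdt2 step 44.9% of the 6228 genes had such an interval, and at the ncu05853 step 26.1%. The whole interval lay below 1/1.4 in 121 members at the cdt2 step, in 68 at the ncu05853 step and in 54 at both. The same was not counted over all genes, so these counts describe the members only. In the other members counting error alone could carry a ratio across the limit of 1/1.4. The nearest genes inside the ncu05853 limit were NCU08418 (0.714), NCU06857 (0.714) and NCU09636 (0.714), and the nearest outside were NCU16719, NCU07474 and NCU17176, all at 0.715. At the cdt2 limit NCU04266 (0.713), gel-1 (0.709) and NCU05143 (0.703) lay inside, and NCU09349 (0.722), NCU03647 (0.726) and NCU05490 (0.728) outside. At the limit of 1/8, NCU08670 (0.133), gh47-5 (0.134) and NCU06504 (0.135) were kept, and NCU00250 (0.120), NCU03254 (0.119) and NCU06931 (0.119) were not. By reads in Δ3βG, NCU06272 (103), NCU05732 (108) and NCU05607 (110) were kept, and NCU01598 (95), NCU04568 (95) and NCU06878 (93) were not.

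Transcription factors and conidiation genes made up 7 of the 28 members with a symbol, and stood in Δ3βGΔcdt2Δncu05853 at 0.167 to 0.423 of the Δ3βG level. The lowest was csp-2 (NCU06095), a grainyhead-type factor named for conidial separation, which frees ripe conidia from each other. It had 1744 reads in Δ3βGΔcdt2Δncu05853, 7985 in Δ3βGΔncu05853 and 12082 in Δ3βG, with ratios of 0.277 (0.263 to 0.292) at the cdt2 step and 0.603 (0.586 to 0.620) at the ncu05853 step. csp-1 (NCU02713), a transcriptional repressor that links the circadian clock to metabolism and also bears on conidial separation, had 784, 2325 and 4041 reads. Its ratios were 0.427 (0.394 to 0.463) and 0.525 (0.498 to 0.552), the lowest of this group at the ncu05853 step.

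The remaining genes of that group stood in Δ3βGΔcdt2Δncu05853 at 0.285 to 0.423 of the Δ3βG level, above csp-2 and csp-1. acon-2 (NCU00478), without which no conidia form, had 175 reads in Δ3βGΔcdt2Δncu05853, 545 in Δ3βGΔncu05853 and 709 in Δ3βG. asl-1 (NCU01345), a basic leucine zipper factor of the ATF type that is also named atf-1, had 505, 1293 and 1869 reads in the same order. Both were lower at the cdt2 step, at 0.407 and 0.495, than at the ncu05853 step, at 0.701 and 0.631. con-6 (NCU08769), a small protein gene expressed strongly during conidiation, had 658, 1630 and 2194 reads. asd-4 (NCU15829), a GATA factor of ascus development, had 200, 423 and 551 reads. rpn-4 (NCU01640), which shares its name with the proteasome gene activator of budding yeast, had 283, 553 and 773 reads. In rpn-4 the steps were alike in size, 0.648 (0.560 to 0.750) and 0.652 (0.584 to 0.728). This likeness depends on scaling. The log2 ratios of rpn-4 were -0.62 at both steps, but -1.34 at the cdt2 step and -0.60 at the ncu05853 step on library totals without eas.

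**Figure D3:**
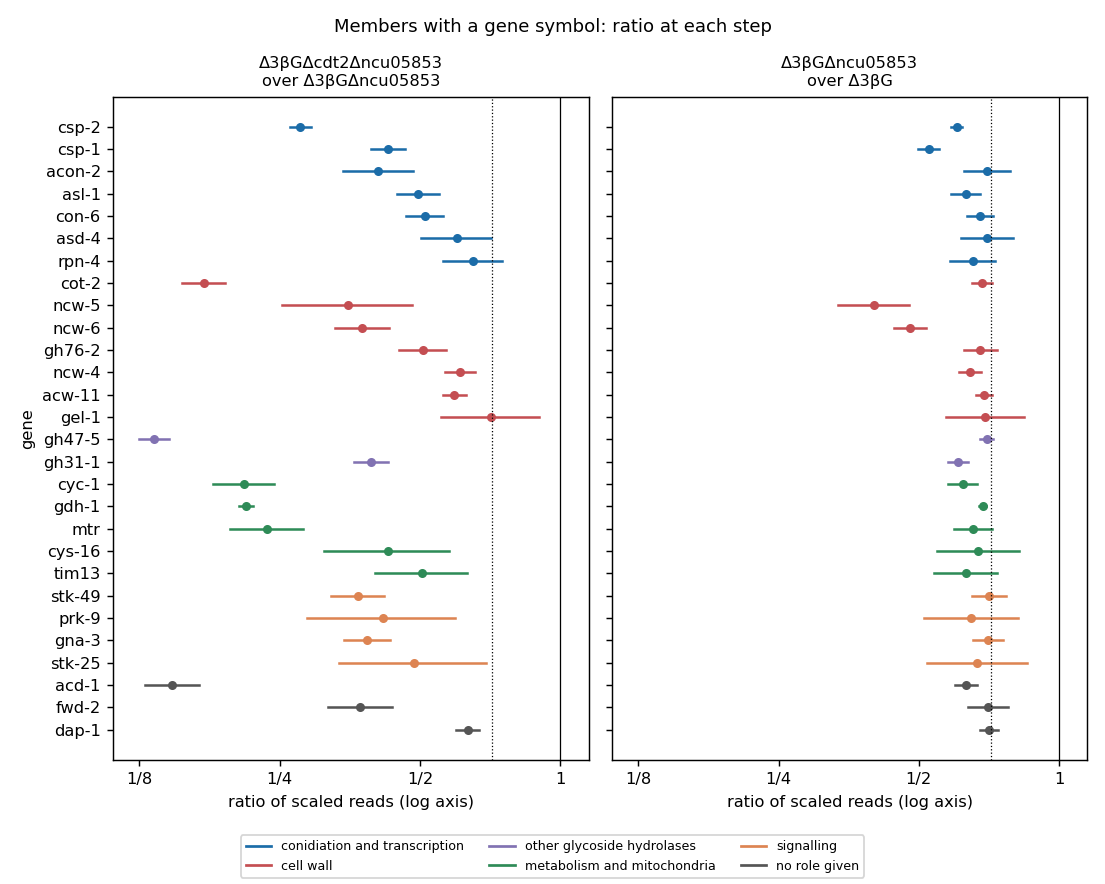
Ratio of scaled reads at the cdt2 step (left) and the ncu05853 step (right) for the 28 members with a gene symbol, on a log axis, 1 library per strain. Points are ratios and lines exact 95% counting intervals; the dotted line is 1/1.4 and the solid line 1. Ratios span 0.134 to 0.709 on the left but only 0.400 to 0.707 on the right.

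Gene lists are counted here over genes with at least 100 reads in Δ3βG, a minimum that can leave out genes high only in the other strains. Markers of conidia and aerial hyphae included genes at most 1/1.4 at the ncu05853 step, as con-6 was, and lay on both sides at the cdt2 step. Of 11 markers, 10 had at least 100 reads in Δ3βG. At the cdt2 step 5 of these were at most 1/1.4 and 5 at least 1.4-fold higher (5 and 2 on library totals without eas), where 30.3% of all 6228 genes were at most 1/1.4 and 25.3% at least 1.4-fold higher. Under the scaling in brackets, 4036 of the 6228 were that low and 646 that high. At the ncu05853 step 5 markers were at most 1/1.4 and 0 at least 1.4-fold higher, where 5.56% and 4.38% of all genes were. Their median log2 ratio at that step was -0.49, beside -0.56 for con-6 and -0.02 over all genes. con-6 was the 1 member among them. The conidiation regulator fl (NCU08726) and con-13 (NCU07324) were at most 1/1.4 at both steps but under the limit of 1/8, with 319, 5315 and 7927 reads and 22, 1084 and 1563 reads in Δ3βGΔcdt2Δncu05853, Δ3βGΔncu05853 and Δ3βG. By contrast con-10 (NCU07325) had 818, 460 and 692 reads, lower at the ncu05853 step at 0.606 and higher at the cdt2 step at 2.25 (1.38 on library totals without eas, short of 1.4). The scaled reads of all 11 markers summed to 134058 in Δ3βGΔcdt2Δncu05853, 1765400 in Δ3βGΔncu05853 and 1662130 in Δ3βG, and without eas to 100166, 70603 and 91175. Most of each sum without eas came from ccg-1 (NCU03753), which had 64930, 48530 and 53743 reads before scaling. The order of the strains in that sum therefore mostly reflects ccg-1 and is not shared by all markers. None of the markers was at 0 in any library. The part of spores or aerial hyphae in the members' levels was not tested.

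Genes of the cell wall were the other group of 7. The non-anchored cell wall protein genes ncw-5 (NCU00716) and ncw-6 (NCU00586) had the lowest ratios at the ncu05853 step of all members with a symbol. ncw-5 had 51 reads in Δ3βGΔcdt2Δncu05853, 184 in Δ3βGΔncu05853 and 419 in Δ3βG, with ratios of 0.351 (0.252 to 0.481) at the cdt2 step and 0.400 (0.335 to 0.477) at the ncu05853 step. ncw-6 had 294, 990 and 1884 reads, with ratios of 0.376 (0.329 to 0.429) and 0.479 (0.443 to 0.518). The intervals of the steps overlapped in ncw-5 but not in ncw-6, which depends on scaling. On library totals without eas the log2 ratios at the cdt2 step were -2.22 in ncw-5 and -2.12 in ncw-6. At the ncu05853 step they were -1.30 and -1.04 on those totals. cot-2 (NCU04189), also named gs-1 and needed for β-glucan synthase activity, had 383, 2824 and 3776 reads. Its ratio at the cdt2 step, 0.172 (0.154 to 0.191), was the lowest of the group, whereas at the ncu05853 step it was 0.682 (0.649 to 0.716).

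The other wall members stood higher in Δ3βGΔcdt2Δncu05853 relative to Δ3βG. ncw-4 (NCU02948) had 1040 reads in Δ3βGΔcdt2Δncu05853, 2158 in Δ3βGΔncu05853 and 3053 in Δ3βG. acw-11 (NCU02041), an anchored cell wall protein gene, had 1897, 4054 and 5359 reads. Per exon length they were among the 12 most abundant members in Δ3βG, at 255 and 280 RPKM, and in Δ3βGΔcdt2Δncu05853 both kept close to 0.4 of the Δ3βG level, 0.394 and 0.409. gh76-2 (NCU04262), of a family of mannan-directed enzymes that includes wall-building proteins of budding yeast, had 410, 1023 and 1378 reads. gel-1 (NCU01162), a glucanosyltransferase that lengthens wall glucan, had 108, 193 and 254 reads and the highest ratio of all 161 members, 0.491 of the Δ3βG level.

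The wall protein families held genes lower and higher in Δ3βGΔcdt2Δncu05853. Of 21 genes with an ncw, acw or gel symbol, 20 had at least 100 reads in Δ3βG. At the ncu05853 step 7 of the 20 were at most 1/1.4 and 1 at least 1.4-fold higher, where 5.56% and 4.38% of all genes were. At the cdt2 step 10 were at most 1/1.4 and 6 at least 1.4-fold higher, where 30.3% and 25.3% were. On library totals without eas these counts were 13 and 4, where 4036 and 646 of all 6228 genes were. Members were 5 of the 20, beside 2.59% of all genes; the families were chosen after values were seen, so nothing is read from this share. The median log2 ratio of the 20 was -0.45 at the cdt2 step and -0.13 at the ncu05853 step, against -0.10 and -0.02 over all 6228 genes. On library totals without eas it was -1.16 at the cdt2 step, against -0.81 over all genes. acw-3 (NCU05667), with 2260, 22323 and 25559 reads in Δ3βGΔcdt2Δncu05853, Δ3βGΔncu05853 and Δ3βG, was lower at the cdt2 step and at 0.796 at the ncu05853 step, short of the limit. acw-8 (NCU07277) had 11511, 263 and 195 reads and ncw-1 (NCU05137) 22012, 7183 and 4954, so both were highest in Δ3βGΔcdt2Δncu05853. Of 4 chitin synthase (chs) genes with at least 100 reads, 3 were at most 1/1.4 at the cdt2 step (4 on library totals without eas), 0 at the ncu05853 step.

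**Figure D4:**
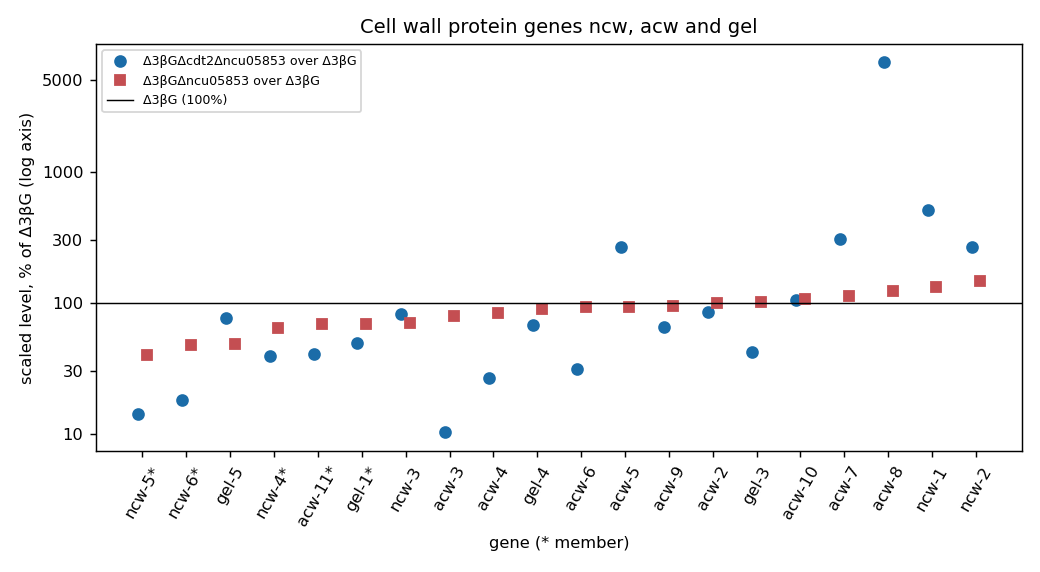
Scaled level of 20 ncw, acw and gel genes with at least 100 reads in Δ3βG, as a percent of the Δ3βG level on a log axis, in Δ3βGΔcdt2Δncu05853 (circles) and Δ3βGΔncu05853 (squares), ordered by the level in Δ3βGΔncu05853, with 1 library per strain. The 5 members are marked with an asterisk; the list holds genes on both sides of the line at 100%, and squares lie closer to it than most circles.

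Glycoside hydrolases outside the wall group added 2 members. gh47-5 (NCU07067), of the α-mannosidase family that trims glycans of secreted proteins, had 753 reads in Δ3βGΔcdt2Δncu05853, 7100 in Δ3βGΔncu05853 and 9265 in Δ3βG. It was at 0.134 (0.125 to 0.145) at the cdt2 step and 0.699 (0.677 to 0.721) at the ncu05853 step. gh31-1 (NCU09281), of the α-glucosidase family, had 757, 2441 and 3668 reads, with ratios of 0.393 and 0.607. With gh76-2 these were 3 of 40 genes of the gh families with at least 100 reads in Δ3βG. Of those 40, 24 were at least 1.4-fold higher at the cdt2 step and 7 at most 1/1.4 (14 and 13 on library totals without eas). Over all 6228 genes these shares were 25.3% and 30.3%. Under the scaling in brackets, 646 of the 6228 were that high and 4036 that low. The median log2 ratio was then 0.09 for the 40 and -0.81 over all 6228. gh18-4, gh13-2 and gh10-4 were lower at both steps and under the limit of 1/8.

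The most abundant member per exon length in Δ3βG and Δ3βGΔncu05853 was gdh-1 (NCU00461), the NAD-specific glutamate dehydrogenase, which breaks glutamate down to 2-oxoglutarate and ammonium. It had 3739 reads in Δ3βGΔcdt2Δncu05853, 22409 in Δ3βGΔncu05853 and 29822 in Δ3βG, and 75.9, 442 and 628 RPKM. Its ratio was 0.211 (0.204 to 0.219) at the cdt2 step and 0.685 (0.673 to 0.697) at the ncu05853 step. mtr (NCU06619), the permease for neutral amino acids, had 144, 776 and 1081 reads and ratios of 0.235 (0.195 to 0.281) and 0.654 (0.596 to 0.718).

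Mitochondrial genes among the members were cyc-1 (NCU01808) and tim13 (NCU06244). cyc-1, which encodes cytochrome c and is also named cyt-12, had 211 reads in Δ3βGΔcdt2Δncu05853, 1276 in Δ3βGΔncu05853 and 1873 in Δ3βG. Its ratio was 0.210 (0.180 to 0.243) at the cdt2 step and 0.621 (0.578 to 0.667) at the ncu05853 step. tim13, a small chaperone of protein import into mitochondria, had 110, 276 and 399 reads. Subunit genes of respiratory complex I (nuo) did not go with cyc-1: of 29 with at least 100 reads, 23 were at least 1.4-fold higher at the cdt2 step (1 on library totals without eas, where 1 was at most 1/1.4) and 0 at most 1/1.4 at either step. At the cdt2 step 25.3% of all 6228 genes were at least 1.4-fold higher. With eas left out of the totals, 646 of the 6228 were that high and 4036 lay at or under 1/1.4. The median log2 ratio was then 0.06 for the nuo genes and -0.81 over all 6228. cys-16 (NCU09230), of a set of loci named for a need of cysteine, had 58, 172 and 234 reads. Of 9 cys genes with at least 100 reads, 5 were at least 1.4-fold higher at the cdt2 step (2 on library totals without eas). Their median log2 ratio was 0.51, and -0.20 on those totals, against -0.10 and -0.81 over all 6228 genes.

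Lists of neighbouring metabolism held 0 members; since 2.59% of all genes meet the rule, nothing is read from this. In the list of gluconeogenesis and glyoxylate cycle genes, 4 of 5 were at most 1/1.4 at the cdt2 step and 1 at the ncu05853 step. Over all 6228 genes these shares were 30.3% and 5.56%. acu-6 (NCU09873), phosphoenolpyruvate carboxykinase, was at 0.358 (0.347 to 0.370) at the ncu05853 step and at 0.0811 at the cdt2 step, which is under the limit of 1/8. fbp-1, acu-9 and acu-3 were at 0.756, 0.736 and 0.788 at the ncu05853 step. The remaining gene of the list, acu-5 (NCU06836), was higher at the cdt2 step, at 3.50 (3.23 to 3.80), and at 1.01 at the ncu05853 step. Of the genes of starch, glycogen and trehalose, 6 of 10 were at least 1.4-fold higher at the cdt2 step (4 on library totals without eas) and 3 at the ncu05853 step. In the same list 3 were at most 1/1.4 at the cdt2 step (4 on library totals without eas) and 1 at the ncu05853 step. Over all 6228 genes 25.3% and 4.38% were at least 1.4-fold higher at these steps. With eas left out of the totals, 646 of the 6228 were that high at the cdt2 step and 4036 lay at or under 1/1.4. Peroxisome genes (pex) had 15 of 20 at most 1/1.4 at the cdt2 step and 0 at the ncu05853 step. On library totals without eas all 20 were at most 1/1.4 at the cdt2 step, as were 4036 of all 6228 genes. The carbon catabolite repressor cre-1 (NCU08807) had 561, 1338 and 1358 reads in Δ3βGΔcdt2Δncu05853, Δ3βGΔncu05853 and Δ3βG. It was thus at 0.531 at the cdt2 step (0.325 on library totals without eas) and 0.898 at the ncu05853 step.

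Signalling genes gave 4 members with a narrow range, 0.260 to 0.324 of the Δ3βG level in Δ3βGΔcdt2Δncu05853. gna-3 (NCU05206), the Gα protein that acts with adenylyl cyclase and whose loss lets conidia form in submerged culture, had 394 reads in Δ3βGΔcdt2Δncu05853, 1298 in Δ3βGΔncu05853 and 1682 in Δ3βG. Its ratios were 0.385 (0.343 to 0.431) at the cdt2 step and 0.704 (0.654 to 0.757) at the ncu05853 step. The protein kinase genes stk-49 (NCU07062), prk-9 (NCU04096) and stk-25 (NCU03823) had 297, 42 and 44 reads in Δ3βGΔcdt2Δncu05853, 1023, 128 and 115 in Δ3βGΔncu05853, and 1320, 180 and 157 in Δ3βG. They were 3 of 52 stk and prk genes with at least 100 reads in Δ3βG, of which 21 were at most 1/1.4 at the cdt2 step (45 on library totals without eas) and 3 at the ncu05853 step. Over all 6228 genes 30.3% were at most 1/1.4 at the cdt2 step (4036 genes on library totals without eas). The count of 3 is near the 5.56% of all genes at the ncu05853 step.

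For acd-1 (NCU02287), fwd-2 (NCU07521) and dap-1 (NCU04258) no role is given here. acd-1 was the lowest of all members with a symbol, with 254 reads in Δ3βGΔcdt2Δncu05853, 2186 in Δ3βGΔncu05853 and 3157 in Δ3βG, and stood at 0.0930 (0.0815 to 0.106) of the Δ3βG level. fwd-2 had 208, 709 and 920 reads, and dap-1 1822, 3644 and 4703. None of the heat shock (hsp), histone, cytosolic ribosomal protein (crp), catalase (cat) or superoxide dismutase (sod) genes was a member, and none with an acu, ccg, al, arg or nit symbol or among the clock and light genes frq, wc-1, wc-2 and vvd. These lists are short and 2.59% of all genes meet the rule, so nothing is read from this. Of the catalase genes, cat-1 (NCU08791) and cat-4 (NCU05169) were at most 1/1.4 at the ncu05853 step, at 0.592 and 0.539, but not at the cdt2 step, at 1.02 and 0.845 (0.623 and 0.516 on library totals without eas).

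The other 133 members have no gene symbol in the annotation used. Their median level in Δ3βGΔcdt2Δncu05853 was 0.282 of that in Δ3βG, beside 0.270 in the 28 with a symbol. The lowest level of all was that of NCU06597, with 81 reads in Δ3βGΔcdt2Δncu05853, 754 in Δ3βGΔncu05853 and 1618 in Δ3βG. It stood at 0.0578 (0.0457 to 0.0723) of the Δ3βG level in Δ3βGΔcdt2Δncu05853 and was also among the 12 most abundant members per exon length in Δ3βG, at 236 RPKM. NCU06504 had 28, 263 and 542 reads and NCU08557 15, 121 and 278, at 0.0597 and 0.0623. NCU07523, with 335, 2695 and 5773 reads, was the best measured of these deep changes, at 0.0670 (0.0599 to 0.0749). These 4 genes combined ratios of 0.397 to 0.442 at the ncu05853 step with 0.135 to 0.158 at the cdt2 step. NCU02259, NCU05844, NCU08670, NCU08712 and NCU04635 followed, at 0.0872 to 0.0884 of the Δ3βG level.

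NCU06883 had the lowest ratio of all members at the ncu05853 step. It had 54 reads in Δ3βGΔcdt2Δncu05853, 115 in Δ3βGΔncu05853 and 335 in Δ3βG, and ratios of 0.595 (0.422 to 0.829) at the cdt2 step and 0.313 (0.251 to 0.388) at the ncu05853 step. NCU05627, with 82, 348 and 790 reads, had ratios of 0.299 and 0.402. Unlike NCU06883 it was at most 1/2 at both steps.

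Abundant members without a symbol covered both shallow and deep changes. NCU04635 had 422 reads in Δ3βGΔcdt2Δncu05853, 3889 in Δ3βGΔncu05853 and 5518 in Δ3βG, or 33.3, 298 and 452 RPKM. NCU10603 had 484, 4354 and 5606 reads, or 35.6, 311 and 428 RPKM. Both stood close to 0.1 of the Δ3βG level in Δ3βGΔcdt2Δncu05853, at 0.0884 and 0.100. NCU02765, with 1187, 2803 and 4186 reads, stood at 0.328, and NCU08418, with 1120, 5455 and 6967 reads, at 0.186. NCU04850 had 1405, 4200 and 6066 reads and stood at 0.268. At 102 RPKM, NCU02765 was the most abundant of all members in Δ3βGΔcdt2Δncu05853. It was followed by acw-11 (95.4), ncw-4 (83.6), con-6 (79.2) and gdh-1 (75.9), the last of which led in both other strains.

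The rule did not use exon length or position. The members' exon length had a median of 2180 bases, with quartiles of 1572 and 2873, near that of all 6228 genes, 2366 bases with quartiles of 1718 and 3251. In the order of protein-coding genes along the chromosomes, 22 of 161 members (13.7%) lay directly beside another member, in 11 pairs. Among the 6066 other genes with at least 100 reads in Δ3βG that could be placed, 194 (3.20%) lay directly beside a member. With at most 1 gene between, the shares were 26 members (16.1%) and 390 other genes (6.43%). This is a description of positions with no test. Reads labelled ambiguous name no gene and were left out. They were 0.895%, 0.897% and 0.844% of all reads in Δ3βGΔcdt2Δncu05853, Δ3βGΔncu05853 and Δ3βG. The use of strand in counting is not given in the sources used here. Whether reads of a member were counted for its neighbour was not tested.

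Pairs differed in how alike their genes were. The partners' intervals overlapped at both steps in 6 of the 11 pairs. NCU09820 and NCU09821 had ratios of 0.598 and 0.613 at the cdt2 step and 0.543 and 0.538 at the ncu05853 step. mtr and its neighbour NCU06618, which had 19 reads in Δ3βGΔcdt2Δncu05853, 98 in Δ3βGΔncu05853 and 147 in Δ3βG, had 0.235 and 0.246 at the cdt2 step and 0.654 and 0.608 at the ncu05853 step. The others of these 6 were NCU06332 with NCU06331, cys-16 with NCU08594, NCU07806 with NCU16915 and prk-9 with NCU04097. In the pair of NCU07523 and fwd-2 the intervals overlapped at neither step, with 0.158 against 0.372 at the cdt2 step and 0.426 against 0.703 at the ncu05853 step. In 3 pairs they overlapped at the cdt2 step only: ncw-5 and NCU00717 had 0.400 and 0.627 at the ncu05853 step, NCU06883 and NCU06884 0.313 and 0.458, and NCU04538 and NCU04539 0.526 and 0.712. NCU01369 and NCU01370 overlapped at the ncu05853 step only, with 0.343 and 0.548 at the cdt2 step.

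**Figure D5:**
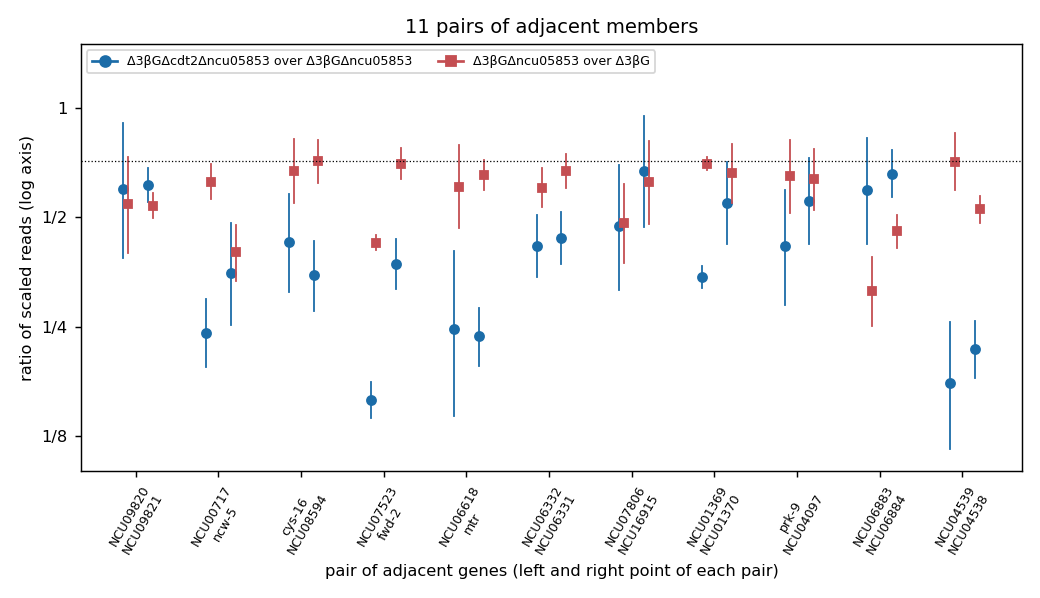
Ratio of scaled reads at the cdt2 step (circles) and the ncu05853 step (squares) for the 11 pairs of adjacent members, on a log axis, with exact 95% counting intervals and 1 library per strain. The dotted line is 1/1.4. Partners lie close together in pairs such as NCU09820 with NCU09821 and far apart in NCU07523 with fwd-2.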

How the data were processed

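The authors deposited, for each of 3 libraries, the read count, exon length in bases and RPKM of 9730 genes. Reads were aligned and counted with TopHat and HTSeq, per the submitters' processing notes. Settings, genome build, annotation and strand use were not given in the sources used here. To make RPKM the authors divided by exon length and by the file's total, unassigned reads included: recomputed values differed by at most 1.93e-08 of the value. RPKM served only to compare genes within a library. Rows that name no gene (8.53%, 14.2% and 16.8% of all reads in Δ3βGΔcdt2Δncu05853, Δ3βGΔncu05853 and Δ3βG) were left out. Reads with several alignments are not counted, so near-identical genes may read low.

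Counts were divided by median-of-ratios size factors over the 8691 genes with reads in all libraries: 0.882, 1.12 and 1.02 in that order of strains. Intervals of ratios are Clopper-Pearson intervals conditional on the sum of both counts (scipy 1.17.1), and PCR reads are not independent molecules. TMM factors (edgeR 4.0.16) were an alternative. Symbols and gene order came from a RefSeq table of assembly NC12, which matched 9729 identifiers. No sequences were used, so planned promoter motif counts were not run.

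The members and the gene lists were chosen with earlier results of these data known. Named are members with a symbol, the 12 with the highest RPKM in Δ3βG, the 10 with the lowest level in Δ3βGΔcdt2Δncu05853 relative to Δ3βG, the 5 lowest at the ncu05853 step, list members, adjacent members and the 3 genes on either side of each limit. The ncw, acw, gel, stk and prk families and the other genes named from them were chosen after values were seen.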

Additional observations from a re-analysis of the deposited data

How the results depend on the processing

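Of the settings tried, 4 scalings and 2 looser rules kept the number of genes within 1.5 times of 161. The demand that both intervals lie below 1 left all 161, which the rule nearly forces, so it is no check. The number was 151 with TMM factors (151 shared), 205 on library totals (148 shared), 194 on those totals without eas (125 shared) and 147 on all reads in the file (122 shared). With a minimum of 50 reads it was 185, and without the limit of 1/8 it was 199. Without a minimum of reads it was 256, with one of 500 reads 88, with a fold of 1.5 at each step 93, with a fold of 2 at each step 11, and with both counting intervals below 1/1.4 it was 54; these follow from the looser or stricter rule.

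The median log2 ratio of the members at the cdt2 step was -1.23, and -1.62 on library totals and -1.94 on those totals without eas. Such a scaling shifts every gene at that step alike, by -0.39 and -0.71, and all reads in the file by -0.30. At the ncu05853 step the median stayed between -0.63 and -0.58. Of 224 values of members with a symbol under the 4 scalings, 75 moved by more than their counting error, 74 of them at the cdt2 step. No paired analysis was possible because each strain has 1 library, and for the same reason no library could be left out. Members near 100 reads have the widest intervals. The planned promoter windows were not run, because no sequences were used.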
